A study of Homo sapiens with 12 samples.

Results

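The mRNA levels of 10 receptor tyrosine kinases known from drug resistance in melanoma (AXL, TYRO3, MERTK, EGFR, ERBB2, MET, PDGFRA, PDGFRB, FGFR1 and KIT) were followed in A375 human melanoma cells that carried an empty vector or a mutant of the transcriptional co-activator YAP. Each receptor was found by its symbol in a table of 31585 distinct gene loci. The loci of 8 of the 10 were among the 15055 expressed highly enough to be tested, and those of PDGFRA and PDGFRB are shared with other genes. In YAP-2SA cells, 6 of these 8 receptors were higher and 1 lower than in Control cells, where 22.9% of all loci tested were called higher and 19.5% lower. EGFR (9.28-fold), AXL (4.11-fold), the PDGFRB locus (3.99-fold) and MET (2.75-fold) changed most, FGFR1 and ERBB2 rose by less than 2-fold, and TYRO3 was slightly lower. The receptor that led the Control cells by level, ERBB3, fell 19.6-fold in the same cells.

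A375 is an established line with an activating BRAF mutation, and the same line stood behind all 12 libraries. The cells were stably transduced with a retroviral MSCV-IRES-Hygro vector, either empty (Control) or coding for YAP-S127A, YAP-S94A,S127A or YAP-2SA, with 3 libraries each. The S127A change makes YAP insensitive to cytoplasmic retention through the LATS kinases, and YAP-2SA carries S381A as well, a second LATS site that marks YAP for degradation. The S94A change removes binding to the TEAD transcription factors, so YAP-S94A,S127A served as the TEAD-binding-deficient form of YAP-S127A. For the YAP-2SA libraries the condition entry of the sample records and the design text of the series also list S94A, whereas the titles do not, and the titles were followed. By the design text, the 3 replicates of a group were plated separately from the stably transduced line of that vector. The tests below therefore measure the spread between such cultures, and an effect of the vector cannot be told apart from one of the line.

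The values are fragments mapped to a locus, scaled to the length of its transcripts and to the total mapped in the library (FPKM), so that they can be compared between genes. A gene was called when the adjusted p of limma's moderated test, corrected by the Benjamini-Hochberg method over all 15055 loci, was under 0.05, and fold changes were fitted as differences of log2(FPKM + 1), on which the change of a weakly expressed gene looks smaller than it is. Ratios of group mean FPKM are given beside them. The read depth of the libraries is unknown. In these bulk samples, fewer cells with a transcript and less of it per cell cannot be told apart.

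YAP1 itself stood at 34.1 and 33.0 FPKM in Control replicates 1 and 2 but at 172 FPKM in Control replicate 3, within the range of 130 to 187 FPKM in the 9 libraries with a YAP vector. The receptors of Control replicate 3 were close to those of the other Control libraries, with AXL at 47.4 and EGFR at 5.08 FPKM, and the calls against Control are also given without it. Of 9 melanocyte lineage markers, SOX10, MITF, S100B and MIA were expressed in Control cells, whereas the pigment genes PMEL, MLANA, TYR, DCT and TYRP1 stayed under 1 FPKM. The summed level of these markers was 683 to 802 FPKM in Control, 775 to 810 in YAP-S94A,S127A, 548 to 683 in YAP-S127A and 92.3 to 105 in YAP-2SA libraries. SOX10 was 234 to 281 FPKM in Control and 4.53 to 7.25 FPKM in YAP-2SA libraries, whereas MITF was 5.01 to 11 and 30.1 to 41.0 FPKM. The 4 fibroblast markers summed to 1.68 to 2.94 FPKM in Control, 1.85 to 2.14 in YAP-S94A,S127A, 8.05 to 10.6 in YAP-S127A and 31.7 to 38.9 in YAP-2SA libraries, of which COL1A1 gave 27.9 to 36.3 FPKM. The 4 epithelial markers summed to 6.28 to 7.65 FPKM in Control, 7.11 to 7.42 in YAP-S94A,S127A, 6.50 to 11.3 in YAP-S127A and 2.13 to 2.19 in YAP-2SA libraries. Among them, mean KRT14 fell from 6.87 FPKM in Control to 0.434 FPKM in YAP-2SA cells, whereas KRT5 rose from 0.0282 to 1.56 FPKM. The 3 endothelial and 3 leukocyte markers each summed to under 1 FPKM in every library. The leukocyte marker PTPRC was listed at 0 in all Control libraries, and EPCAM, COL1A2 and DCN were at most 0.149, 0.739 and 0.692 FPKM in any library. The part of these shifts in the receptor levels was not tested.

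Receptor tyrosine kinases sit in the plasma membrane, bind growth factors outside the cell and, once paired, phosphorylate each other on tyrosine. Adaptors such as GRB2 and SHC proteins dock there and pass the signal to RAS and ERK, and PI3-kinase passes it to AKT. In melanomas with mutant BRAF, which signals to ERK without a receptor, a raised level of EGFR, AXL, PDGFRB or MET is a known feature of cells that tolerate BRAF inhibitors, often with low SOX10 and MITF. No inhibitor was used on the cells measured here.

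Only the upstream regions of AXL and EGFR are shown, because these genes changed most, and because TEAD factors read the motif CATTCC. RefSeq windows were at hand for 9 of the 10 receptors, 13 windows in all, and the 250 bases before each start were searched on both strands. CATTCC was found in 2 of the 13 windows, 1 of AXL and 1 of EGFR, a share near the 11.9% of 35116 windows of all genes. The AP-1 motif TGANTCA was found in 4 of the 13 windows, 1 each of EGFR, TYRO3, ERBB2 and PDGFRA, against 6.57% of all windows, and the 2 motifs do not overlap in any of them. In the sequences, taken from GRCh38.p14 on the plus strand and written 5′ to 3′, capitals mark a match to either motif.
AXL, second start, chr19:41226505-41226754: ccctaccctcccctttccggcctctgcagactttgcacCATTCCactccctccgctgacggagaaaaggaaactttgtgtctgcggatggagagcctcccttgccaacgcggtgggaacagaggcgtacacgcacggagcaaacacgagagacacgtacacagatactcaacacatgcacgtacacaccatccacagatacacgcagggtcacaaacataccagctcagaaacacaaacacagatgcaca
EGFR, second start, chr7:55109589-55109838: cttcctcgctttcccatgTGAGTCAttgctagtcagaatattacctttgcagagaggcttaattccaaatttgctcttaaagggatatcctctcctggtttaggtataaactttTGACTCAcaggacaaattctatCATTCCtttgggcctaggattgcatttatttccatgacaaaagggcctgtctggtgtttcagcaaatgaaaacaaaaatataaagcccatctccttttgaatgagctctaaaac
AXL, first start, chr19:41218973-41219222: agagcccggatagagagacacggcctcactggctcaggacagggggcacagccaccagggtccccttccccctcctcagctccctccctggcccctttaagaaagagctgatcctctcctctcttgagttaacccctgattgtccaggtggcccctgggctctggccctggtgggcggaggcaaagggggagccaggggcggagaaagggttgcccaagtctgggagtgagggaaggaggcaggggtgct
EGFR, first start, chr7:55018767-55019016: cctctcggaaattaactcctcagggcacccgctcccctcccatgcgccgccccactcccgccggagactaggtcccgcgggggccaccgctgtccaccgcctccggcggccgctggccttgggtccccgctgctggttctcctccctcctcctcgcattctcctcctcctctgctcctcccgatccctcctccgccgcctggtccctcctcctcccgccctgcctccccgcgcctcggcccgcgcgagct
The CATTCC of AXL began 212 bases before its second start and that of EGFR 114 bases before its second start, where TGAGTCA and TGACTCA lay at 232 and 136 bases. The windows before the first starts of both genes held neither motif. The table gives 1 value per locus, so it does not show which start was used, and a match is a description of these letters and not a binding site.

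**Figure D1:**
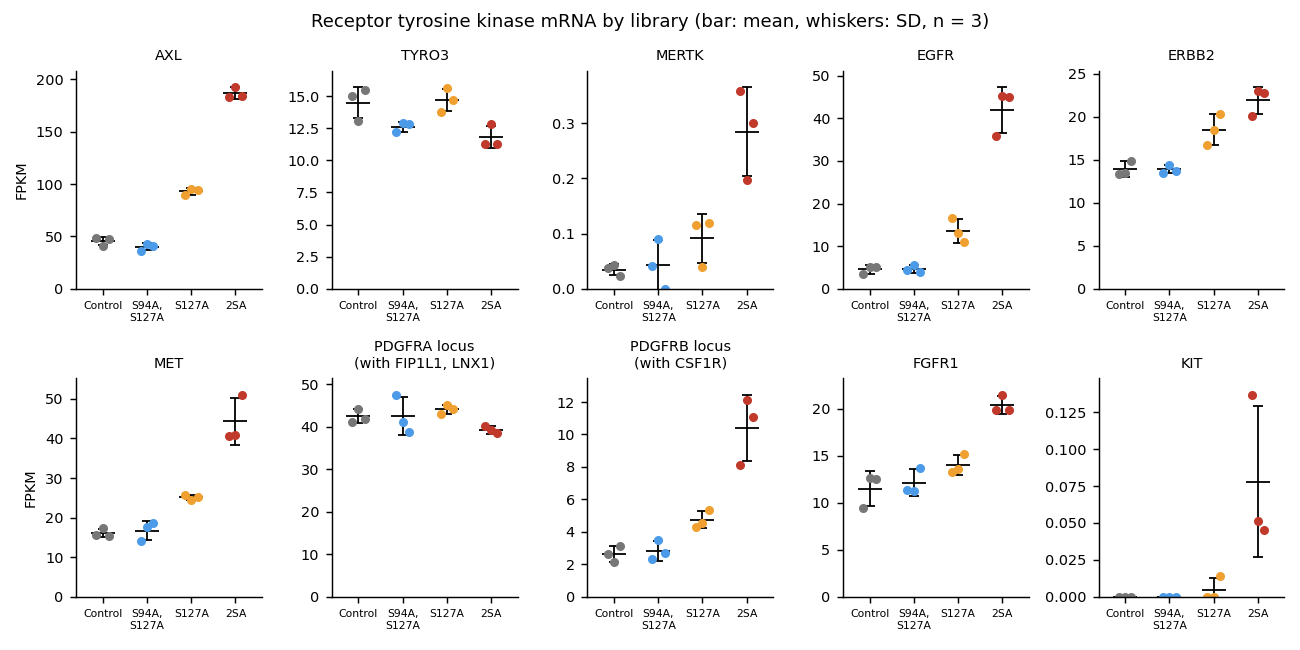
FPKM of the 10 receptors (y axes, linear and from 0, each panel with its own range) in the 3 libraries of each vector (points), with the group mean (bar) and SD (whiskers, cut at 0). AXL was 183 to 193 FPKM in YAP-2SA against 40.7 to 48.1 FPKM in Control libraries, while MERTK and KIT stayed below 1 FPKM in all 12 libraries.

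The TAM receptors AXL, TYRO3 and MERTK bind the vitamin K-dependent protein GAS6, and TYRO3 and MERTK also bind its relative PROS1. AXL (19:41725128-41767671, plus strand, GRCh37) stood at 48.1, 40.7 and 47.4 FPKM in Control, 36.2, 43.0 and 40.8 FPKM in YAP-S94A,S127A, 89.4, 95.6 and 94.3 FPKM in YAP-S127A, and 183, 193 and 184 FPKM in YAP-2SA libraries. Control and YAP-S94A,S127A libraries overlapped, and every YAP-S127A library lay between them and every YAP-2SA library. AXL was 4.11-fold higher in YAP-2SA than in Control cells, with a log2 fold change of 2.02 ± 0.08 (SE, adjusted p = 8.6e-09, limma). In YAP-S127A cells it was 2.05-fold higher (1.02 ± 0.08, adjusted p = 2.3e-05, limma), and YAP-2SA exceeded YAP-S127A by 2.01-fold (adjusted p = 3.6e-06). With the TEAD-binding-deficient form AXL did not pass the test (log2 fold change -0.18, 95% interval -0.35 to -0.01, unadjusted p = 0.0416, adjusted p = 1, limma). The difference between YAP-S127A and YAP-S94A,S127A was 1.20 ± 0.08 on the log2 scale (adjusted p = 5.4e-06).

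TYRO3 (15:41849873-41875787, plus strand, GRCh37) stood at 15.0, 13.1 and 15.5 FPKM in Control, 12.2, 12.9 and 12.8 FPKM in YAP-S94A,S127A, 13.8, 15.6 and 14.7 FPKM in YAP-S127A, and 11.3, 12.8 and 11.3 FPKM in YAP-2SA libraries. The YAP-2SA libraries lay below those of Control and YAP-S127A, by as little as 13.1 against 12.8 FPKM, and overlapped those of YAP-S94A,S127A. TYRO3 was lower in YAP-2SA than in Control cells by a log2 fold change of -0.28 ± 0.08 (SE, adjusted p = 0.0129, limma) and lower than in YAP-S127A cells by -0.29 ± 0.08 (adjusted p = 0.0125). Leaving out 1 library took these calls just past the threshold at a similar fold change. The first was -0.23 without Control replicate 3 (adjusted p = 0.052) and -0.25 without YAP-2SA replicate 3 (adjusted p = 0.0504), and the second was -0.26 without YAP-2SA replicate 3 (adjusted p = 0.05). The Control libraries also lay above all 3 YAP-S94A,S127A libraries, a difference that did not pass the test (unadjusted p = 0.0337, adjusted p = 1, limma).

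MERTK (2:112656184-112787138, plus strand, GRCh37) never reached 1 FPKM and was left out of the main test. It stood at 0.0374, 0.0425 and 0.0231 FPKM in Control, 0.0410, 0.0905 and 0 FPKM in YAP-S94A,S127A, 0.115, 0.0396 and 0.119 FPKM in YAP-S127A, and 0.358, 0.197 and 0.301 FPKM in YAP-2SA libraries. The 3 YAP-2SA libraries were above the other 9, at levels where the depth behind a value is unknown. In the setting with no filter on low values, MERTK passed in YAP-2SA against Control (log2 fold change 0.31 ± 0.05, adjusted p = 7.7e-04, limma).

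The ERBB family comprises EGFR, which binds EGF-like ligands, ERBB2, which has no ligand of its own and pairs with the others, and ERBB3, a neuregulin receptor with little kinase activity. EGFR (7:55086710-55279321, plus strand, GRCh37) stood at 3.35, 5.16 and 5.08 FPKM in Control, 4.36, 5.67 and 3.93 FPKM in YAP-S94A,S127A, 16.6, 13.1 and 10.9 FPKM in YAP-S127A, and 35.8, 45.2 and 45.1 FPKM in YAP-2SA libraries. As for AXL, the YAP-S127A libraries were separate from both the lower and the higher groups. EGFR was 9.28-fold higher in YAP-2SA than in Control cells (log2 fold change 2.97 ± 0.18, adjusted p = 3.7e-07, limma), the largest ratio among the 8 receptors tested. It was 2.99-fold higher in YAP-S127A cells (1.40 ± 0.18, adjusted p = 0.00108), and did not pass the test in YAP-S94A,S127A cells (0.04, 95% interval -0.37 to 0.45). YAP-2SA exceeded YAP-S127A by 3.10-fold (adjusted p = 8.3e-05), and YAP-S127A exceeded YAP-S94A,S127A by 2.91-fold (adjusted p = 0.00101).

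ERBB2 (17:37844167-37886679, plus strand, GRCh37; the locus lists the microRNA gene MIR4728, which lies within it) stood at 13.3, 13.5 and 14.9 FPKM in Control, 13.5, 14.4 and 13.7 FPKM in YAP-S94A,S127A, 16.7, 18.5 and 20.3 FPKM in YAP-S127A, and 20.1, 23.0 and 22.7 FPKM in YAP-2SA libraries. All YAP-S127A and YAP-2SA libraries were above all Control and YAP-S94A,S127A libraries, but 1 YAP-S127A library lay above the lowest YAP-2SA library. ERBB2 was 1.58-fold higher in YAP-2SA (log2 fold change 0.62 ± 0.08, adjusted p = 1.1e-04, limma) and 1.33-fold higher in YAP-S127A cells (0.39 ± 0.08, adjusted p = 0.0172) than in Control cells. The second call was lost without Control replicate 1 (adjusted p = 0.0566), Control replicate 2 (0.066) or YAP-S127A replicate 3 (0.055). The difference of 0.24 between YAP-2SA and YAP-S127A just passed (adjusted p = 0.0454) and was lost in 13 of 21 other settings, among them 9 of the 12 that left out 1 library.

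MET (7:116312250-116438431, plus strand, GRCh37), the receptor for hepatocyte growth factor, stood at 15.6, 17.3 and 15.3 FPKM in Control, 14.0, 17.7 and 18.6 FPKM in YAP-S94A,S127A, 25.6, 24.4 and 25.2 FPKM in YAP-S127A, and 40.6, 41.0 and 51.1 FPKM in YAP-2SA libraries. Its groups were ordered as those of AXL and EGFR, with overlap between Control and YAP-S94A,S127A libraries alone. MET was 2.75-fold higher in YAP-2SA (log2 fold change 1.40 ± 0.11, adjusted p = 2.6e-06, limma) and 1.56-fold higher in YAP-S127A cells (0.61 ± 0.11, adjusted p = 0.00815) than in Control cells. YAP-2SA exceeded YAP-S127A by 1.76-fold (adjusted p = 3.3e-04). Its ligand gene HGF, mentioned after its values were seen, was at most 0.0762 FPKM in any library.

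PDGFRA, PDGFRB and KIT are class III receptors, bound by platelet-derived growth factors or, for KIT, by stem cell factor. PDGFRB (5:149493402-149535435, minus strand, GRCh37) shares its locus in the table with the neighbouring gene CSF1R, which lies 466 bases away on the same strand, so the value cannot be divided between the 2 genes. The locus stood at 2.61, 2.13 and 3.10 FPKM in Control, 2.29, 3.48 and 2.69 FPKM in YAP-S94A,S127A, 4.32, 4.56 and 5.33 FPKM in YAP-S127A, and 8.11, 12.1 and 11.1 FPKM in YAP-2SA libraries. No YAP-2SA library overlapped any other group, and the YAP-S127A libraries were above all Control and YAP-S94A,S127A libraries. The locus was 3.99-fold higher in YAP-2SA than in Control cells (log2 fold change 1.65 ± 0.16, adjusted p = 1.3e-05, limma) and 2.20-fold higher than in YAP-S127A cells (adjusted p = 9.4e-04). The YAP-S127A libraries were 1.81-fold above Control (0.67 ± 0.16, adjusted p = 0.0345) and 1.68-fold above YAP-S94A,S127A (0.60 ± 0.16, adjusted p = 0.0422). Each of these calls was lost in 9 of 21 other settings, with an adjusted p of 0.127 without Control replicate 2 for the first and 0.142 without YAP-S94A,S127A replicate 1 for the second.

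PDGFRA (4:55095447-55164412, plus strand, GRCh37) is listed in 1 locus with FIP1L1 and LNX1, although FIP1L1 ends 764897 bases away, so its own level cannot be read from the table. The locus stood at 41.2, 44.3 and 41.9 FPKM in Control, 47.6, 41.2 and 38.8 FPKM in YAP-S94A,S127A, 43.0, 45.1 and 44.3 FPKM in YAP-S127A, and 40.2, 39.3 and 38.5 FPKM in YAP-2SA libraries. The YAP-2SA libraries were all below the Control libraries, by a log2 fold change of -0.11 with a 95% interval of -0.26 to 0.04 that did not pass the test (adjusted p = 0.233, limma). No other comparison of the locus passed.

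KIT (4:55523434-55606949, plus strand, GRCh37) was listed at 0 in 8 of 12 libraries and was left out of the main test. It stood at 0.0140 FPKM in YAP-S127A replicate 3 and at 0.137, 0.0512 and 0.0454 FPKM in the YAP-2SA libraries. All 6 Control and YAP-S94A,S127A libraries were at 0. With no filter on low values, KIT passed in YAP-2SA against Control (0.11 ± 0.03, adjusted p = 0.0146, limma), again at levels of unknown depth. The fit shares the spread of all groups, and the groups at 0 had none, so this p does not measure the spread between YAP-2SA cultures.

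FGFR1 (8:38257733-38326352, minus strand, GRCh37), a receptor for fibroblast growth factors, stood at 9.39, 12.6 and 12.5 FPKM in Control, 11.3, 11.2 and 13.7 FPKM in YAP-S94A,S127A, 13.3, 13.6 and 15.2 FPKM in YAP-S127A, and 19.9, 21.5 and 19.9 FPKM in YAP-2SA libraries. The YAP-2SA libraries were above the other 9, and the lowest YAP-S127A library was only slightly above the highest Control library. FGFR1 was 1.78-fold higher in YAP-2SA than in Control cells (log2 fold change 0.79 ± 0.11, adjusted p = 2.3e-04, limma) and 1.45-fold higher than in YAP-S127A cells (adjusted p = 0.00573). In YAP-S127A against Control it did not pass the test (0.28, 95% interval 0.03 to 0.53, adjusted p = 0.208).

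**Figure D2:**
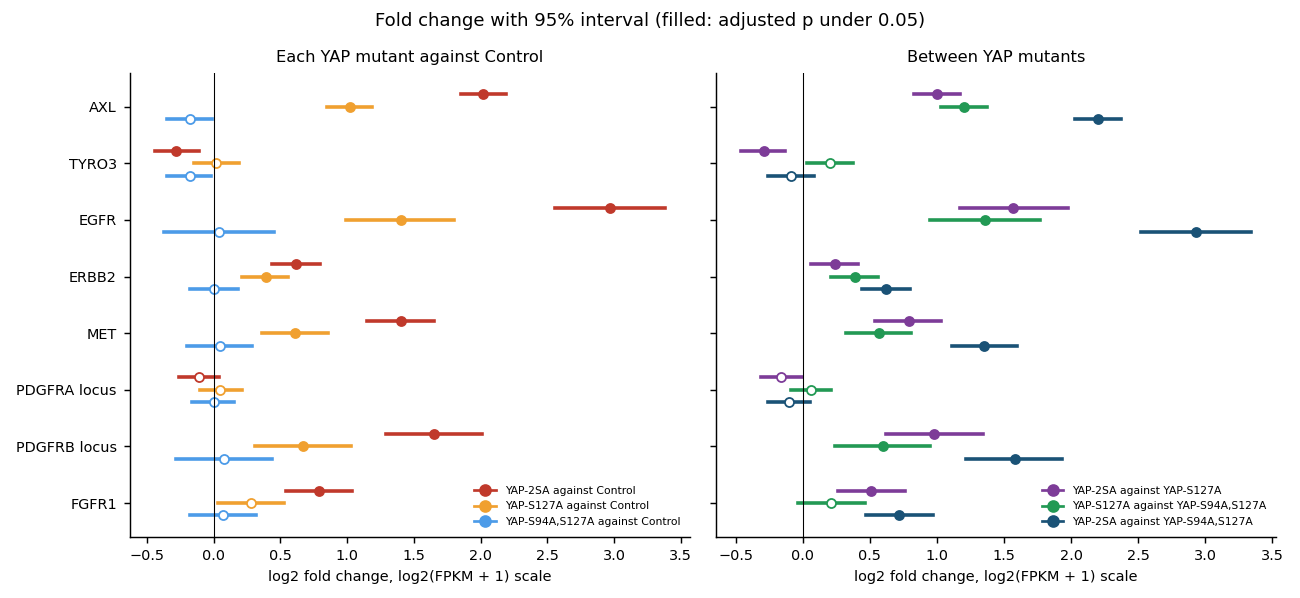
Log2 fold change (x axes, log2(FPKM + 1) scale, with 95% intervals from limma) of the 8 receptors tested, for each YAP mutant against Control (left) and between YAP mutants (right), with filled points at an adjusted p under 0.05. The points of YAP-S94A,S127A against Control lie between -0.18 and 0.08, while EGFR reaches 2.97 in YAP-2SA against Control.

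Set against all loci, 6 of 8 receptors were called higher in YAP-2SA than in Control cells, where 22.9% of the loci tested were called higher, and 1 of 8 was called lower, against 19.5%. Their median log2 fold change was 1.09, against 0.01 over all loci. In YAP-S127A against Control, 5 of 8 were higher, against 4.56% of all loci, and 0 were lower, against 1.75%. Here the count fell to 3 (AXL, EGFR and MET) without Control replicate 1, without Control replicate 2 or without YAP-S127A replicate 3. The loci called higher fell too, from 687 of 15055 to 609, 481 and 526 in that order. These comparisons share their Control libraries and are not independent of each other.

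In YAP-S94A,S127A against Control, 0 of 8 were called in either direction by limma, where 0.0864% of loci were called higher and 0.093% lower, and 2 of 8, AXL and TYRO3, had an unadjusted p under 0.05. The median log2 fold change was 0.02. The direct comparison of YAP-S127A with YAP-S94A,S127A called 5 of 8 higher, the same 5 as against Control (AXL, EGFR, ERBB2, MET and the PDGFRB locus), against 6.36% of all loci, and 0 lower, against 4.31%. YAP-2SA against YAP-S127A called 6 of 8 higher, against 18.3% of all loci, and 1 lower, against 14.5%. YAP-2SA against YAP-S94A,S127A called 6 of 8 higher, against 23.2%, and 0 lower, against 20.3%.

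When a ratio of group mean FPKM over 2 was also required, 4 of 8 receptors were higher in YAP-2SA than in Control cells (EGFR, AXL, the PDGFRB locus and MET), against 7.59% of all loci, and 0 were lower, against 7.86%. For YAP-S127A against Control 2 of 8 were higher (AXL and EGFR), against 2.07%, and 0 lower, against 0.405%. For YAP-S94A,S127A against Control the counts were 0 higher, against 0.0797%, and 0 lower, against 0.093%. For YAP-2SA against YAP-S127A they were 3 higher (AXL, EGFR and the PDGFRB locus), against 5.17%, and 0 lower, against 5.94%. For YAP-S127A against YAP-S94A,S127A they were 2 higher (AXL and EGFR), against 2.54%, and 0 lower, against 0.95%. For YAP-2SA against YAP-S94A,S127A they were 4 higher, against 7.81%, and 0 lower, against 8.1%.

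Without Control replicate 3, the library with the high YAP1 level, the same 6 receptors were called higher in YAP-2SA and the same 5 in YAP-S127A cells than in Control cells. The log2 fold changes in YAP-2SA were then 2.05 for AXL, 3.05 for EGFR, 1.37 for MET, 1.75 for the PDGFRB locus, 0.85 for FGFR1 and 0.67 for ERBB2. With 3 libraries a group, an exact permutation test of a single gene cannot reach a p of 0.05, so no such test was used.

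**Figure D3:**
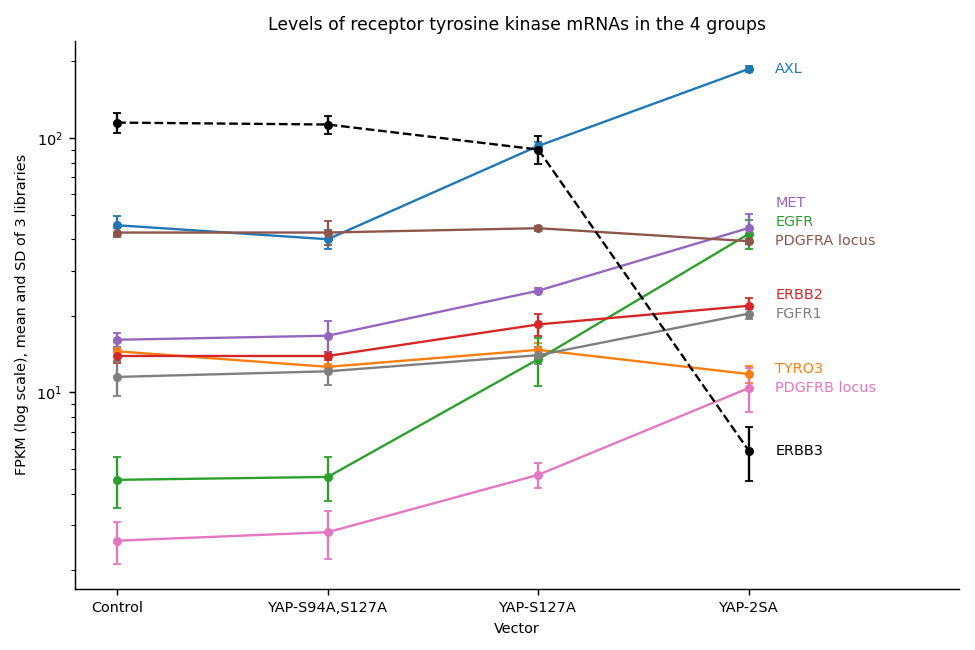
Mean FPKM (y axis, log scale) with SD over 3 libraries of the 8 receptors tested and of ERBB3 (dashed) in the 4 groups (x axis), with lines joining the means. The PDGFRA and PDGFRB values are of loci shared with other genes. ERBB3 leads in Control at 115 FPKM and is the lowest of the 9 in YAP-2SA at 5.89 FPKM, where AXL leads at 187 FPKM.

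The order by level of the 8 receptors tested, among which ERBB3 is not counted, differed between the groups. In Control cells AXL (45.4 ± 4.10 FPKM, SD, n = 3) and the PDGFRA locus (42.5 ± 1.64) led and overlapped, followed by MET (16.1 ± 1.07), TYRO3 (14.5 ± 1.23) and ERBB2 (13.9 ± 0.898), whose libraries overlapped their neighbours in that order. FGFR1 (11.5 ± 1.83), EGFR (4.53 ± 1.02) and the PDGFRB locus (2.61 ± 0.489) were lower, each separate from the next. In YAP-S94A,S127A cells EGFR and the PDGFRB locus were again the lowest of the 8 receptors tested, at 4.65 ± 0.907 and 2.82 ± 0.603 FPKM. In YAP-S127A cells AXL (93.1 ± 3.24) stood clear of the PDGFRA locus (44.2 ± 1.07) but overlapped ERBB3 (90.1 ± 11.4), and EGFR (13.5 ± 2.88) overlapped FGFR1 (14.0 ± 1.04). In YAP-2SA cells AXL (187 ± 5.58 FPKM) was followed by MET (44.3 ± 5.93), EGFR (42.0 ± 5.43) and the PDGFRA locus (39.3 ± 0.895), which overlapped in this order, and TYRO3 (11.8 ± 0.877) overlapped the PDGFRB locus (10.4 ± 2.06).

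A further 47 receptor tyrosine kinases were counted, leaving out CSF1R because it shares the PDGFRB locus, of which 22 were expressed highly enough to be tested. In YAP-2SA against Control, 5 of the 22 were higher, against 22.9% of all loci, 10 were lower, against 19.5%, and 7 did not pass. The share called higher was thus near that of all loci. Their median log2 fold change was -0.21, against 0.01 over all loci. TIE1 passed the filter on low values through groups other than Control, and EPHA7 and EPHB3 through groups other than YAP-2SA, so these 3 of the 22 had to differ. Without Control replicate 3 the counts were again 5 higher and 10 lower. ERBB3 stood at 105, 114 and 126 FPKM in Control, 120, 102 and 117 FPKM in YAP-S94A,S127A, 81.6, 103 and 85.6 FPKM in YAP-S127A, and 4.29, 6.99 and 6.38 FPKM in YAP-2SA libraries. The YAP-2SA libraries were far below all others, with a log2 fold change against Control of -4.10 ± 0.15 (adjusted p = 6.3e-09, limma), and the YAP-S127A libraries did not pass against Control.

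The naming rule took ERBB3 and 5 ephrin receptors, which bind ligands anchored on neighbouring cells. EPHA3 was 23.6 ± 2.39 FPKM in Control and 1.12 ± 0.164 FPKM in YAP-2SA cells, a fall of 21.0-fold (adjusted p = 1.3e-09, limma). EPHB3 (8.98-fold), EPHA7 (4.53-fold) and EPHA4 (2.98-fold) were also lower. EPHB1, EPHB2 and EPHB4 are mentioned after their values were seen. EPHB2 was 2.05-fold lower (2.34 against 4.80 FPKM, adjusted p = 1.2e-04, limma), and EPHB1 and EPHB4 did not pass the test (adjusted p = 0.827 and 0.207). EPHA2 was higher, from 48.7 ± 3.23 FPKM in Control to 96.8 ± 14.0 in YAP-S127A and 182 ± 7.85 FPKM in YAP-2SA cells, with log2 fold changes of 0.97 (adjusted p = 0.00197) and 1.88 (adjusted p = 1.6e-06). In YAP-S94A,S127A cells EPHA2 was 43.3 ± 8.87 FPKM and did not pass the test. In YAP-S127A against Control 2 of these 22 receptors were higher, against 4.56% of all loci, and 2 lower, against 1.75%, and in YAP-S94A,S127A against Control 0 were called by limma, with 2 at an unadjusted p under 0.05.

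Of 37 genes for ligands of the receptors or, for the neuregulins, of the partners of ERBB2, 15 could be tested. In YAP-2SA against Control 8 were higher, against 22.9% of all loci, 3 were lower, against 19.5%, and 4 did not pass, with a median log2 fold change of 1.50. AREG, NRG1 and PDGFB were under 1 FPKM in every Control library and FGF1 in every YAP-2SA library. These 4 of the 15 passed the filter only through groups where they were high and had to differ, so the counts and the median are in part set by the filter. With YAP-S127A, 5 were higher, against 4.56%, and 2 lower than in Control cells, against 1.75%. Without Control replicate 3 the counts were 8 higher and 2 lower in YAP-2SA, and 4 higher and 1 lower in YAP-S127A cells, where PDGFB (adjusted p = 0.0762) and FGF1 (0.11) no longer passed. In YAP-S94A,S127A against Control 0 were called by limma, with 1 at an unadjusted p under 0.05.

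Both ligands of the TAM receptors, of which AXL binds GAS6 alone, were higher in YAP-2SA cells. GAS6 stood at 2.87, 3.66 and 3.74 FPKM in Control and 11.4, 11.9 and 11.1 FPKM in YAP-2SA libraries, a 3.36-fold difference (log2 fold change 1.50 ± 0.10, adjusted p = 4.5e-07, limma). In YAP-S127A libraries GAS6 was 4.24, 4.51 and 5.13 FPKM and did not pass the test against Control. PROS1, which codes for protein S and was picked for mention after its values were seen, was 3.46-fold higher in YAP-2SA cells (12.5 ± 1.18 against 3.60 ± 0.387 FPKM, adjusted p = 5.2e-06).

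Of 6 ERBB ligand genes tested, NRG1, HBEGF and AREG were higher in YAP-2SA than in Control cells, and TGFA and NRG4 were lower. The neuregulin NRG2 did not pass (2.32 against 2.87 FPKM, adjusted p = 0.128, limma). AREG, NRG4 and NRG2 are mentioned after their values were seen, and the call of NRG4 (adjusted p = 0.0492) was lost without Control replicate 3 (adjusted p = 0.106). TGFA, an EGFR ligand, stood at 121, 142 and 147 FPKM in Control and 4.37, 4.51 and 5.52 FPKM in YAP-2SA libraries, a fall of 28.4-fold (log2 fold change -4.57 ± 0.10, adjusted p = 1.9e-10, limma), and at 85.9, 100 and 96.5 FPKM in YAP-S127A libraries (-0.53, adjusted p = 0.0083). NRG1, a neuregulin that binds ERBB3, stood at 0.997, 0.620 and 0.892 FPKM in Control, 0.662, 0.479 and 0.609 FPKM in YAP-S94A,S127A, 7.16, 7.04 and 6.19 FPKM in YAP-S127A, and 27.7, 31.3 and 30.8 FPKM in YAP-2SA libraries. NRG1 was 35.8-fold higher in YAP-2SA (adjusted p = 4.2e-10) and 8.13-fold higher in YAP-S127A (adjusted p = 8.5e-07) than in Control cells, and stood highest in the YAP-2SA cells, where its receptor ERBB3 was lowest. NRG1 and AREG passed the filter on low values only through groups other than Control, so their calls against Control are in part set by the filter. HBEGF, another EGFR ligand, was 5.69-fold higher in YAP-2SA (13.9 ± 1.77 against 2.45 ± 0.521 FPKM, adjusted p = 3.9e-07) and 1.81-fold higher in YAP-S127A cells (adjusted p = 0.0142). In the Control cells TGFA was the far more abundant of these ligands, at 137 FPKM.

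Of 4 platelet-derived growth factor genes tested, PDGFA, PDGFB and PDGFC were higher in YAP-2SA than in Control cells, and PDGFD, mentioned after its values were seen, did not pass (1.49 against 1.19 FPKM, adjusted p = 0.261). PDGFB stood at 0.376, 0.638 and 0.614 FPKM in Control and 6.47, 9.27 and 7.71 FPKM in YAP-2SA libraries, 14.4-fold higher (log2 fold change 2.51 ± 0.17, adjusted p = 7.4e-07, limma). It passed the filter on low values only through groups other than Control, so its calls against Control are in part set by the filter. PDGFC was 6.26-fold higher (9.91 ± 0.716 against 1.58 ± 0.414 FPKM, adjusted p = 4.6e-07). PDGFA, mentioned after its values were seen, was 8.11-fold higher (11.5 ± 1.83 against 1.42 ± 0.361 FPKM, adjusted p = 1.6e-06). In YAP-S127A cells PDGFA, PDGFB and PDGFC were also called higher than in Control cells, by log2 fold changes of 1.01, 0.70 and 0.77, of which that of PDGFB was lost without Control replicate 3. KITLG, the ligand of KIT and likewise mentioned after its values were seen, varied between libraries of 1 group, at 2.56, 11.7 and 2.16 FPKM in YAP-2SA and 0.501, 3.28 and 2.26 FPKM in Control libraries, and did not pass the test between them (adjusted p = 0.264).

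**Figure D4:**
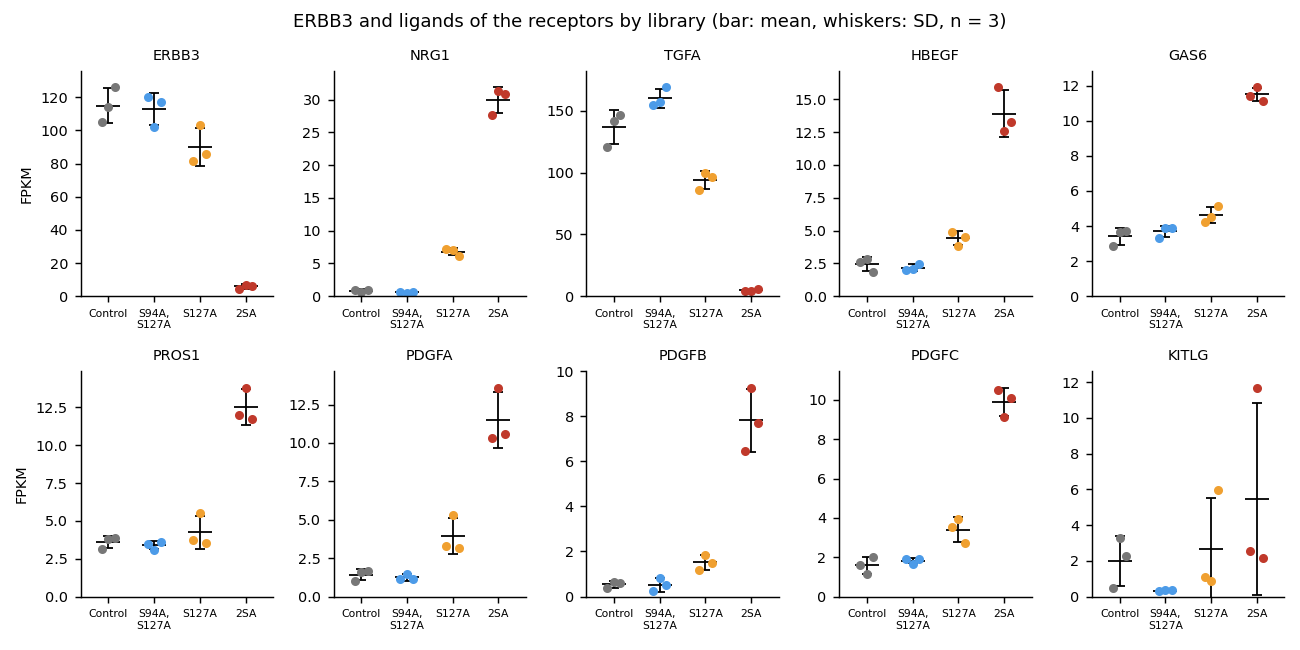
FPKM (y axes, linear and from 0, each panel with its own range) of ERBB3 and 9 ligand genes in the 3 libraries of each vector (points), with the group mean (bar) and SD (whiskers, cut at 0). TGFA falls from a mean of 137 to 4.80 FPKM between Control and YAP-2SA while NRG1 rises from 0.836 to 29.9 FPKM, and KITLG spreads from 2.16 to 11.7 FPKM within YAP-2SA.

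Among 30 adaptors and signal relays, which dock on active receptors, 24 were tested. In YAP-2SA against Control 5 were higher, against 22.9% of all loci, 9 were lower, against 19.5%, and 10 did not pass, and the median log2 fold change was -0.09. The share called higher was near that of all loci. SHC4, GAB1 and VAV3, under 1 FPKM in every YAP-2SA library, passed the filter only through other groups. Without Control replicate 3 the counts were 5 higher and 7 lower. IRS1, a docking protein of the insulin receptor, was 5.46-fold higher (15.0 ± 1.27 against 2.76 ± 0.237 FPKM, adjusted p = 4.2e-07, limma) and 2.44-fold higher in YAP-S127A cells (adjusted p = 9.4e-04). SHC4, an SHC adaptor, was 6.16-fold lower in YAP-2SA cells (0.555 ± 0.177 against 3.42 ± 0.160 FPKM, adjusted p = 2.8e-06), PIK3R3, a regulatory subunit of PI3-kinase, was 3.20-fold lower (adjusted p = 3.8e-06), and VAV3 was 5.04-fold lower (adjusted p = 0.00224). YAP-S127A against Control had 1 of the 24 higher (IRS1), against 4.56% of all loci, and 1 lower (SHC4), against 1.75%, and in YAP-S94A,S127A against Control 0 were called by limma and 0 had an unadjusted p under 0.05.

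Negative regulators, which limit receptor signalling, and sheddases, which cut receptors or their ligands from the surface, were counted together, and 24 of 27 were tested. In YAP-2SA against Control 12 were lower, against 19.5% of all loci, 4 were higher, against 22.9%, and 8 did not pass, with a median log2 fold change of -0.48. Without Control replicate 3, 11 were lower and 3 higher. SPRY4 (106 ± 12.9 against 8.85 ± 0.840 FPKM) and SPRY2 (147 ± 8.33 against 25.5 ± 3.12 FPKM), sprouty proteins that act as feedback inhibitors of receptor signalling and are themselves induced by ERK, fell 12-fold and 5.75-fold (adjusted p = 3.1e-08 and 5.2e-09, limma). LRIG3, a membrane protein related to LRIG1, was 5.04-fold lower (adjusted p = 2.5e-08). SH2B3, an adaptor that dampens cytokine and growth factor receptors, was 2.97-fold lower (adjusted p = 2.9e-07). LRIG1 and LRIG2 are mentioned after their values were seen. LRIG1 was slightly higher (3.79 against 3.11 FPKM, adjusted p = 0.0381, limma), and LRIG2 did not pass (adjusted p = 0.239). PTPRF, a receptor tyrosine phosphatase, was 2.33-fold higher (80.1 ± 7.59 against 34.3 ± 2.92 FPKM, adjusted p = 7.0e-07). In YAP-S127A against Control 1 of the 24 was higher (PTPRF), against 4.56% of all loci, and 2 were lower (LRIG3 and SH2B3), against 1.75%, and in YAP-S94A,S127A against Control 0 were called by limma, with 1 at an unadjusted p under 0.05.

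**Figure D5:**
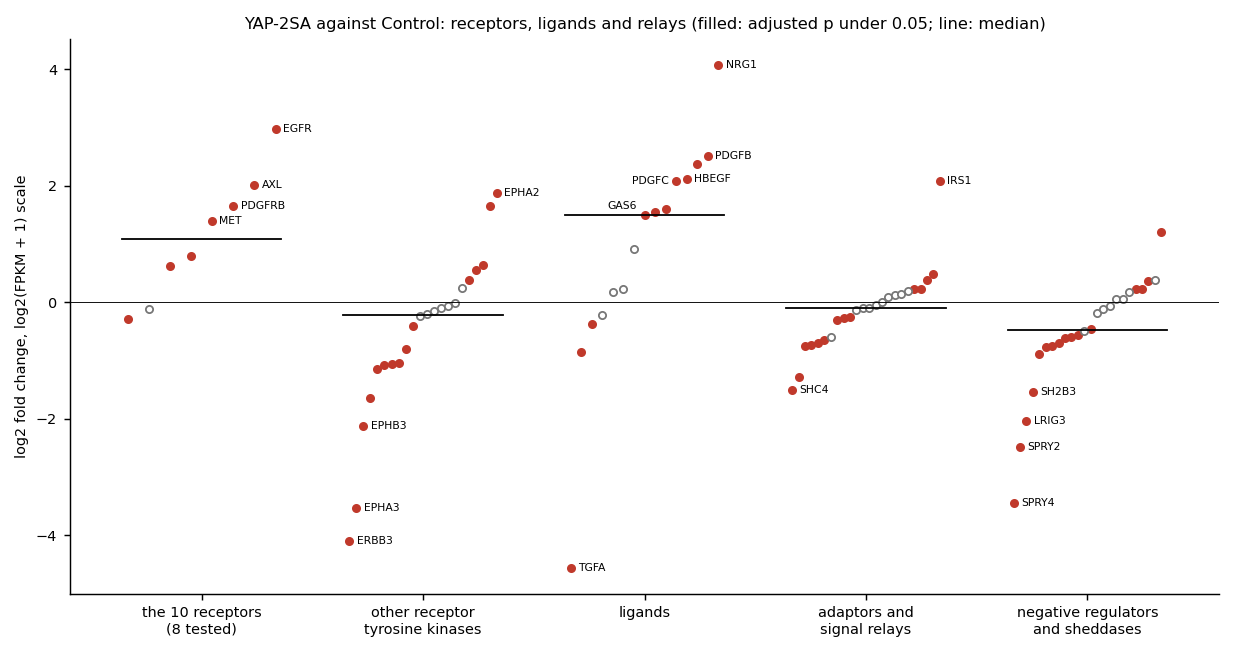
Log2 fold change of YAP-2SA against Control (y axis, log2(FPKM + 1) scale) of every gene tested in 5 lists (x axis), ordered within a list, with filled points at an adjusted p under 0.05 and a line at each median. The medians are 1.09 for the receptors, -0.21 for the other receptor tyrosine kinases, 1.50 for the ligands, -0.09 for the adaptors and -0.48 for the negative regulators and sheddases.

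The loci most alike to each receptor were named by Pearson's r of log2(FPKM + 1) over the 12 libraries, as a description, since the libraries fall into 4 groups that set most of the spread. AXL was most like EHD2 (r = 0.998) and LASP1 (0.997), EGFR most like BDNF (0.992) and ALCAM (0.991), and MET most like TSPAN5 and ANKRD1 (0.986 each), the last a known YAP target gene. ERBB2 was most like MPRIP (0.982) and TPM2 (0.981), FGFR1 most like RRAS (0.984) and IFIT2 (0.974), and the PDGFRB locus most like BEND7 (0.987) and the locus of TNFAIP2 (0.982). The likeness was weaker for TYRO3, with PEX26 (0.957) and AK056618 (0.932), and for the PDGFRA locus, with FKSG63 (0.845) and FXYD1 (0.826).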

How the data were processed

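RNA of 12 A375 cultures, 3 in each of 4 groups, was sequenced by the authors, who aligned reads to hg19 (UCSC known genes) with Bowtie2 2.0.0 and TopHat2 2.0.4 and summarised genes with Cufflinks 2.0.2. The sample records and the methods give different culture times before lysis. The deposited table holds log2(FPKM + 1) values per locus. Of 31588 entries 3 identical ones were removed, and 2179 loci list several symbols, whose reads cannot be divided. How multiply aligned reads were divided is not given in the sources used here. Whole reads could not be recovered from the values (at most 21.7% of 698 to 925 low loci shared 1 step ratio), so depth is unknown, and count tests were not used. FPKM summed to 790865 to 901558 per library, and 20161 to 20656 loci were above 0. Replicates correlated at r = 0.979 to 0.986.

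A locus entered the test when 3 or more libraries had 1 FPKM or more. The test was limma 3.58.1 in R 4.3.3 (empirical Bayes with intensity trend, 1 mean per group, all 12 libraries, two-sided), and p-values were adjusted over all loci tested. The fit was tested on simulated data. The authors' own differential expression, run on the reads, was not repeated. Gene positions are those of GENCODE on GRCh37, the assembly of hg19, and upstream sequences are from RefSeq on GRCh38.p14. Figures used Python 3.11.15 and matplotlib 3.10.9.

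The receptors and gene lists were chosen with earlier results of these data known. By rule, all 10 receptors were named, with at most 6 genes of each other list by smallest p among those called over 2-fold in YAP-2SA against Control, and the 2 loci most alike to each receptor. Alternatives tried were other pseudocounts, filters, scalings, fits and left-out libraries.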

Additional observations from a re-analysis of the deposited data

How the results depend on the processing

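The 48 log2 fold changes of the 8 receptors tested were recomputed under 21 alternative settings. Of 1008 values, 968 kept their side of the threshold, 38 kept their direction but no longer passed, and 2 kept it and now passed. Among values that passed in the main fit or in the alternative, 0 reversed direction. Direction was not compared for values that passed in neither. YAP-2SA against Control kept AXL, EGFR, ERBB2, FGFR1, MET and the PDGFRB locus at an adjusted p under 0.05 in all 21, and YAP-S94A,S127A against Control had 0 calls by limma in all 21.

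With 1 library left out at a time, receptors called higher ranged from 6 to 6 in YAP-2SA against Control, 3 to 5 in YAP-S127A against Control, 5 to 6 in YAP-2SA against YAP-S127A, 4 to 5 in YAP-S127A against YAP-S94A,S127A and 6 to 6 in YAP-2SA against YAP-S94A,S127A. Those called lower ranged from 0 to 1 in YAP-2SA against Control and from 0 to 2 in YAP-2SA against YAP-S127A. The upper value of 2 came without YAP-S94A,S127A replicate 1, where the PDGFRA locus joined TYRO3 (adjusted p = 0.0294), as it did under quantile normalization, which also gave 2 lower (adjusted p = 0.0302). Fitting only the libraries compared left 3 higher in YAP-S127A against Control, where the loci called higher also fell, from 687 to 349 of 15055. Requiring a ratio over 2 left 0 lower and 2 higher in YAP-S127A against Control, 0 lower in YAP-2SA against Control, 3 higher and 0 lower in YAP-2SA against YAP-S127A, and 2 higher in YAP-S127A against YAP-S94A,S127A. The cause of these changes was not tested.

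Whether replicate numbers pair the libraries is not stated. Deviations of same-numbered libraries correlated at -0.15 to 0.16 over 18 pairs, and 5 of 12 libraries correlated best with their own number. Weak correlations cannot show that the cultures were unpaired. A replicate block gave the same receptor counts as without it, with 6 higher and 1 lower in YAP-2SA against Control and 5 higher in YAP-S127A against Control. Over all loci it raised the calls in YAP-2SA against Control from 3443 higher and 2932 lower to 3641 and 3187. Summing the loci of a symbol was not run because each receptor lies on 1 locus. Leaving out Control replicate 3 for the 4 pathway lists was added after seeing the data, and moved 1 of their 16 counts by over 1.5 times, the ligands lower in YAP-S127A against Control, from 2 to 1. The unknown read depth limits MERTK and KIT most.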
